A study of Mus musculus with 10 samples.

Results

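The genes described here are 10 members of the BCL2 family, which sets the balance between survival and mitochondrial death of a cell. They were chosen by name, as the best known anti-apoptotic and pro-apoptotic genes of the family, and all 10 were found among the 55809 gene rows that were counted. They were measured by bulk RNA-seq in Treg cells from the spleen and lymph nodes of mice treated with 5-ph-IAA for 14 days. In every mouse Foxp3 was made from its own locus as a fusion with AID, a degron that responds to auxin, and the same allele also produced ZsGreen and Cre. The 6 R26-TIR1(F74G) libraries came from mice with a modified ROSA26 locus, where Cre excises a STOP sequence flanked by loxP sites and so switches on mCherry and TIR1(F74G), a mutated plant E3 ligase subunit, in cells that express Foxp3. TIR1(F74G) binds the fusion protein in the presence of 5-ph-IAA, an auxin analog, and sends it to the proteasome. The 4 R26-WT libraries came from mice that had the same Foxp3 allele and the same drug but no TIR1, so their Foxp3 protein was kept. The Foxp3 allele was made in 129/B6 F1 embryonic stem cells and backcrossed to C57BL/6, the ROSA26 allele was made in albino C57BL/6 embryonic stem cells and its F74G change by later editing of zygotes, and the age of the mice is not given in the labels. A general sort by ZsGreen, with mCherry for cells that carry TIR1, is described for the study but not stated for these libraries; had it been used, gate and genotype cannot be told apart. The comparison asks how RNA of survival and death genes differs between Treg cells depleted of Foxp3 protein and Treg cells that keep it.

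Proteins of the BCL2 family meet at the outer mitochondrial membrane. Anti-apoptotic members (BCL2, BCL-XL and MCL1) hold the pore-forming effectors BAX and BAK in check, and BH3-only proteins (BIM, PUMA, NOXA, BAD and BID) release or activate the effectors by inserting a short helix, the BH3 domain, into a groove of their partners. Treg cells are known to depend on IL-2 and on MCL1 for survival, and BIM is the BH3-only protein best known for removing lymphocytes that lack survival signals. Much of the control of these proteins is by degradation, phosphorylation and cleavage, none of which RNA counts measure.

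The BH3 core is what the proteins share beyond the choice by name, and its coding bases are shown for 6 members that cover the anti-apoptotic, BH3-only and effector roles. The search, in frame on the coding strand of GRCm39, was for a leucine codon (CTN, TTA or TTG), any 3 codons, a glycine codon (GGN) and an aspartate codon (GAT or GAC). Each window below is 30 bases of coding exon, with the 18 bases of the core in capitals and 2 codons on either side in lower case.
Bcl2: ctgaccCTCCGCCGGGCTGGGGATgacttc
Mcl1: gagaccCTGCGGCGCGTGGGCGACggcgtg
Bcl2l11: caggagCTGCGGCGGATCGGAGACgagttc
Bbc3: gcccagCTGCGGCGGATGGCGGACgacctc
Bad: cgtgagCTCCGAAGGATGAGCGATgagttt
Bax: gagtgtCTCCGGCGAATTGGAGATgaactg
These windows lie at chr1:106640308-106640337 (minus strand, Bcl2), chr3:95566741-95566770 (plus strand, Mcl1), chr2:127989064-127989093 (plus strand, Bcl2l11), chr7:16047692-16047721 (plus strand, Bbc3), chr19:6928154-6928183 (plus strand, Bad) and chr7:45115424-45115453 (minus strand, Bax). Of the 9 members searched, 7 held the pattern, each at 1 place. Where a member had none, the search was repeated with an alanine or serine codon allowed in place of glycine. This wider search found Bbc3 with an alanine codon and Bad with a serine codon, each at 1 place. The glycine pattern is short and was present in 13.3% of 21059 mouse coding sequences, so that a match alone does not mark a BH3 domain. No such share was counted for the wider search. Pmaip1 was not searched.

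Libraries held between 24158699 and 54795718 counted read pairs, 44929734 or more in every R26-WT library and 49333756 or fewer in every R26-TIR1(F74G) library. Treg markers were present in all libraries, with summed normalized counts from 162000 to 179000 in R26-WT and from 153000 to 174000 in R26-TIR1(F74G). Of these 9 markers 0 were called, and 3 (Ctla4, Tnfrsf18 and Izumo1r) had a lower mean in R26-TIR1(F74G) at an unadjusted p under 0.05. Over all tested genes, 6.86% had an unadjusted p under 0.05 in the same DESeq2 fit. Ctla4 had the smallest DESeq2 adjusted p of the list, 0.448, and Tnfrsf18 was called with the length trend removed (adjusted p 0.0442). Lists of other cell types stayed at or under 3880 summed normalized counts in every library. Of B cell markers 3 of 8 could be tested and 0 were called, of plasma cell markers 1 of 5 and 0, of myeloid markers 4 of 9 and 0, of erythroid markers 1 of 6 and 0, and of CD8 and NK cell markers 7 of 8 and 1, Eomes, a T-box factor that was higher in R26-TIR1(F74G) while the list summed to 2010 to 2670 normalized counts in R26-WT and 1720 to 2580 in R26-TIR1(F74G). Mzb1, Tnfrsf17, S100a9, Itgax and Ncr1 had a count of 0 in every library. Of the stress and dissociation list Fos, Jun and Junb were lower in R26-TIR1(F74G) (3 of 10 called, of which edgeR also called Jun and, with an adjusted p of 0.244 and 0.0673, not Fos and Junb; Fos was called in 2 of the 10 fits that left out 1 library; summed from 94200 to 124000 in R26-WT and from 61400 to 84200 in R26-TIR1(F74G)), and their part in the results below was not tested. In bulk RNA, fewer cells of a type and less RNA per cell cannot be told apart.

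Of the 10 members, Bcl2 alone passed the test, and it was higher in R26-TIR1(F74G). The other 9 members did not pass, and their groups overlapped. Genes were called at a Benjamini-Hochberg adjusted p under 0.05 in the Wald test of DESeq2, fitted on all 16363 genes that averaged at least 10 counts. By this rule 284 genes were called, which is 1.74% of those tested, and 229 (1.4%) were called higher. The groups held apart, with no overlap of normalized counts, for 1 of the 10 members and for 2.37% of all tested genes. The median log2 fold change of the members (R26-TIR1(F74G) over R26-WT) was -0.03, with 3 positive and 7 negative, beside 0.0006 over all tested genes. A count of 1 in 10 is not read as a result about the family, and what follows describes each gene.

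**Figure D1:**
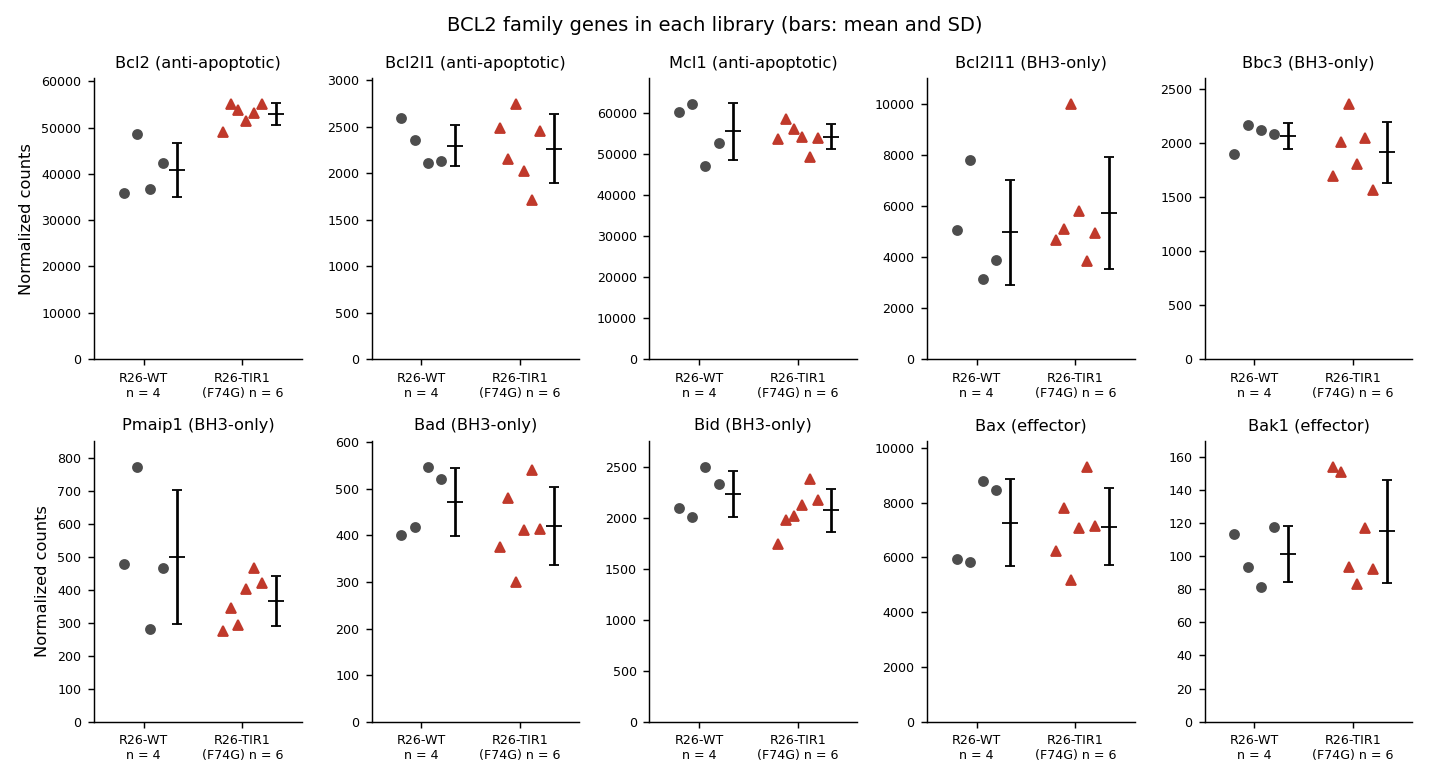
Normalized counts (vertical axes, each from 0) of the 10 BCL2 family genes in the 4 R26-WT (grey circles) and 6 R26-TIR1(F74G) libraries (red triangles), with the mean and SD of each group as black bars. For Bcl2 all 6 R26-TIR1(F74G) libraries lie above all 4 R26-WT libraries, and for the other 9 genes the groups overlap.

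Bcl2 (chromosome 1, 106465908 to 106642004, minus strand, GRCm39) encodes the founding anti-apoptotic protein of the family, which binds BIM and keeps it from the effectors. Its normalized counts (counts divided by DESeq2 size factors) were 35860, 48550, 36790 and 42320 in R26-WT replicates 1 to 4. In R26-TIR1(F74G) they were 49020 at the lowest, 53470 at the median and 55090 at the highest. All 6 R26-TIR1(F74G) libraries were thus above all 4 R26-WT libraries, but the gap between the nearest, R26-TIR1(F74G) replicate 5 and R26-WT replicate 2, was 467 normalized counts, or 0.952% of the former. The group means were 40880 ± 5854 (SD, n = 4) and 52900 ± 2341 (SD, n = 6), with a coefficient of variation of 14.3% and 4.42%. The log2 fold change was 0.37 (SE 0.11, 95% interval 0.16 to 0.59, DESeq2 adjusted p 0.0431), a 1.29-fold difference. This difference was small among the genes called higher, whose median log2 fold change was 1.24, and 269 genes had a smaller p than Bcl2. Of the exon bases of Bcl2, 6.09% are also exons of D630008O14Rik on the opposite strand.

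The call for Bcl2 was close to the threshold. It was kept in 6 of the 19 alternative fits and lost in 13. The direction was positive in all 19, but since the groups did not overlap, leaving out libraries could hardly reverse it, so this adds little. The edgeR quasi-likelihood test gave an adjusted p of 0.192, limma voom with quality weights 0.0899 and DESeq2 with TMM scaling 0.0588. Leaving out R26-WT replicate 2, the R26-WT library with the most Bcl2, raised the log2 fold change to 0.47 (DESeq2 adjusted p 0.000242). Without R26-WT replicate 1, 3 or 4 the DESeq2 adjusted p was 0.261, 0.275 or 0.146. Without R26-TIR1(F74G) replicate 5, 6, 7, 8, 9 or 10 it was 0.0682, 0.132, 0.0891, 0.103, 0.0916 or 0.147.

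**Figure D2:**
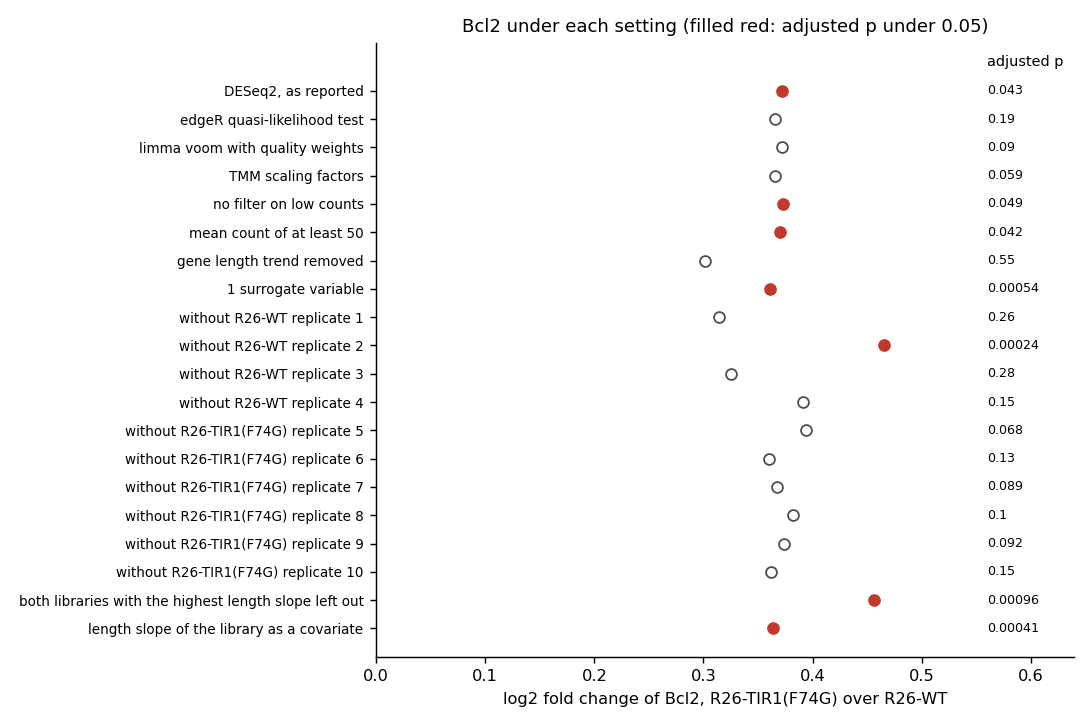
Log2 fold change of Bcl2 (horizontal axis, R26-TIR1(F74G) over R26-WT) in the reported DESeq2 fit and in 19 alternatives (rows), with the adjusted p printed at the right; filled red points have an adjusted p under 0.05. All points lie between 0.30 and 0.47, and the call was made in 6 of the 19 alternatives.

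The remaining anti-apoptotic members did not pass the test. Mcl1 (chromosome 3, 95566099 to 95570487, plus strand) encodes a short-lived protein that binds BIM, NOXA and BAK. Its normalized counts were 60190, 62270, 47140 and 52720 in R26-WT replicates 1 to 4. In R26-TIR1(F74G) they ran from 49230 through a median of 54040 to 58580. Every R26-TIR1(F74G) library lay within the range of the R26-WT libraries, and the log2 fold change was -0.03 (SE 0.11, 95% interval -0.24 to 0.18). Bcl2l1 (chromosome 2, 152622588 to 152673648, minus strand), which encodes BCL-XL, averaged 2299 ± 226 normalized counts over the R26-WT libraries (n = 4, SD) and 2266 ± 372 over the R26-TIR1(F74G) libraries (n = 6, SD). Its log2 fold change was -0.02 (SE 0.15, 95% interval -0.31 to 0.27), and the range of the R26-TIR1(F74G) libraries, 1717 to 2747, enclosed that of R26-WT, 2110 to 2593. The difference of Mcl1 and of Bcl2l1 was smaller than the spread between libraries, and the intervals stayed within 1.5-fold in either direction.

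Among the BH3-only genes none was called. Pmaip1 (chromosome 18, 66591604 to 66598636, plus strand) encodes NOXA, which binds MCL1 and promotes its degradation, and it had the largest difference of all members in size. It had 478, 774, 282 and 468 normalized counts in R26-WT replicates 1 to 4. In R26-TIR1(F74G) the lowest was 274, the median 373 and the highest 467. Of these 6 libraries 1 lay just under the R26-WT range and the rest inside it, and much of the higher R26-WT mean came from replicate 2. The log2 fold change was -0.45 (SE 0.26, 95% interval -0.95 to 0.05, unadjusted p 0.0795, DESeq2 adjusted p 0.902). Without R26-WT replicate 2 it was -0.16, and without R26-WT replicate 3 it was -0.64 (DESeq2 adjusted p 0.252), so that 1 library changed its size by more than 1.5 times.

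Bcl2l11 (chromosome 2, 127967958 to 128004467, plus strand), the gene of BIM, varied most between libraries of one group. It had 5050, 7826, 3146 and 3891 normalized counts in R26-WT replicates 1 to 4. In R26-TIR1(F74G) the lowest was 3839, the median 5027 and the highest 10010. The coefficient of variation was 41.3% in R26-WT and 38.2% in R26-TIR1(F74G), and in each group a single library, R26-WT replicate 2 and R26-TIR1(F74G) replicate 7, stood above the rest. The log2 fold change of 0.20 (SE 0.29, 95% interval -0.36 to 0.77) was smaller than this spread, and without R26-TIR1(F74G) replicate 7 it was -0.03. Without R26-WT replicate 2 it was 0.51 (DESeq2 adjusted p 0.547), without R26-WT replicate 3 it was 0.038 and without R26-WT replicate 4 it was 0.10, so that single libraries set its size.

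The other BH3-only genes varied less between libraries of one group than Bcl2l11 and Pmaip1. Bbc3 (chromosome 7, 16042318 to 16052130, plus strand), which encodes the p53-induced protein PUMA, averaged 2066 ± 119 normalized counts over the R26-WT libraries (n = 4, SD) and 1915 ± 284 over the R26-TIR1(F74G) libraries (n = 6, SD), a log2 fold change of -0.11 (SE 0.13, 95% interval -0.37 to 0.15). Bid (chromosome 6, 120868891 to 120893814, minus strand), whose protein is activated when caspase 8 cuts it, had 2239 ± 224 and 2075 ± 214, a log2 fold change of -0.11 (SE 0.12, 95% interval -0.34 to 0.12). Bad (chromosome 19, 6919229 to 6929267, plus strand), whose protein is kept inactive by phosphorylation, had 472 ± 73 and 420 ± 83, a log2 fold change of -0.17 (SE 0.18, 95% interval -0.52 to 0.19). All 3 had a lower mean in R26-TIR1(F74G), with intervals that include 0. For Bbc3 the difference of the means exceeded the SD in R26-WT but not that in R26-TIR1(F74G), and 3 of 6 R26-TIR1(F74G) libraries lay below all R26-WT libraries. With 1 library left out the log2 fold change ran from -0.18 to -0.056 for Bbc3, from -0.16 to -0.051 for Bid and from -0.25 to -0.086 for Bad, so that single libraries moved each by more than 1.5 times. For Bad, 61.5% of the exon bases are also exons of Gpr137 or of an unnamed gene on the opposite strand, and for Bid 17.7% are exons of Bcl2l13. Read pairs that fell on exons of several genes were not counted, and without strand information the remaining pairs cannot be assigned to one strand, so the counts of Bad and Bid are less certain.

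Neither effector passed the test. Bax (chromosome 7, 45111121 to 45116322, minus strand), whose protein forms pores in the outer mitochondrial membrane, had 5930, 5848, 8781 and 8474 normalized counts in R26-WT replicates 1 to 4. In R26-TIR1(F74G) the lowest was 5168, the median 7098 and the highest 9311. The R26-TIR1(F74G) libraries spanned more than the R26-WT range at both ends, and the log2 fold change was -0.03 (SE 0.19, 95% interval -0.40 to 0.34). For Bax 12.2% of the exon bases are shared with Gm45808 on the same strand. Bak1 (chromosome 17, 27238784 to 27247983, minus strand), whose protein forms pores as BAX does, averaged 101 ± 17 normalized counts over the R26-WT libraries (n = 4, SD) and 115 ± 31 over the R26-TIR1(F74G) libraries (n = 6, SD), with a log2 fold change of 0.19 (SE 0.23, 95% interval -0.27 to 0.64) that ran from 0.087 to 0.27 with 1 library left out. Its raw counts were 47 to 147 per library, the lowest of the 10 members, and 25.5% of its exon bases overlap exons of genes on the opposite strand. Over the 9 members not called, the interval stayed within 1.5-fold in either direction for 6 and reached further for 3, Bcl2l11, Pmaip1 and Bak1. None of the 9 was called in any of the 19 alternative fits.

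**Figure D3:**
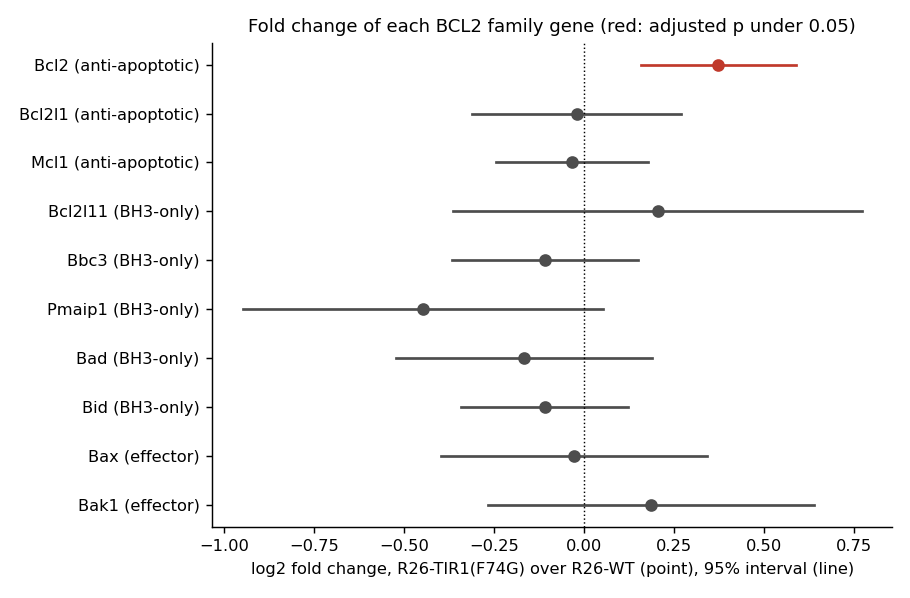
Log2 fold change (points, horizontal axis, R26-TIR1(F74G) over R26-WT) of the 10 genes with its 95% interval (lines) from the DESeq2 fit; red marks an adjusted p under 0.05. The interval of Bcl2, 0.16 to 0.59, lies above 0, and the intervals of the other 9 genes include 0, that of Pmaip1 only just (-0.95 to 0.05).

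The members spanned a wide range of RNA levels, compared here as normalized counts per kilobase of exon. Mcl1 was highest with 16000 ± 1370 (SD, n = 10), above 99.4% of all tested genes, and it was above Bcl2 in 10 of 10 libraries. Bcl2 followed with 5250 ± 795 and Bax with 4550 ± 884. Bcl2 exceeded Bax in 7 of 10 libraries, so their order did not hold beyond the spread, and it differed with the group, with Bax above Bcl2 in R26-WT (4610 and 4460) and below it in R26-TIR1(F74G) (4510 and 5780). All other members were far lower, Bbc3 at 930 ± 111, Bcl2l11 at 676 ± 256, Bid at 603 ± 62.5 and Bcl2l1 at 497 ± 66.9. Of these neighbours, Bbc3 exceeded Bcl2l11 in 9 libraries, Bcl2l11 exceeded Bid in 7 and Bid exceeded Bcl2l1 in 8. Bid was above Bcl2l11 in R26-WT (631 and 620) and below it in R26-TIR1(F74G) (584 and 714). The lowest were Bad at 172 ± 31.1, Pmaip1 at 154 ± 54 and Bak1 at 45.5 ± 10.8 (SD, n = 10 for each). Bad exceeded Pmaip1 in 8 libraries and Pmaip1 exceeded Bak1 in 10, and Bax thus stood far above Bak1 among the effectors. Levels were divided by the whole exonic length, though read pairs on exons of several genes were not counted. The levels of Bad, Bak1, Bid and Bax, with 61.5%, 25.5%, 17.7% and 12.2% of exon bases overlapped, may therefore be too low. Their order against neighbours is less certain for this reason.

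**Figure D4:**
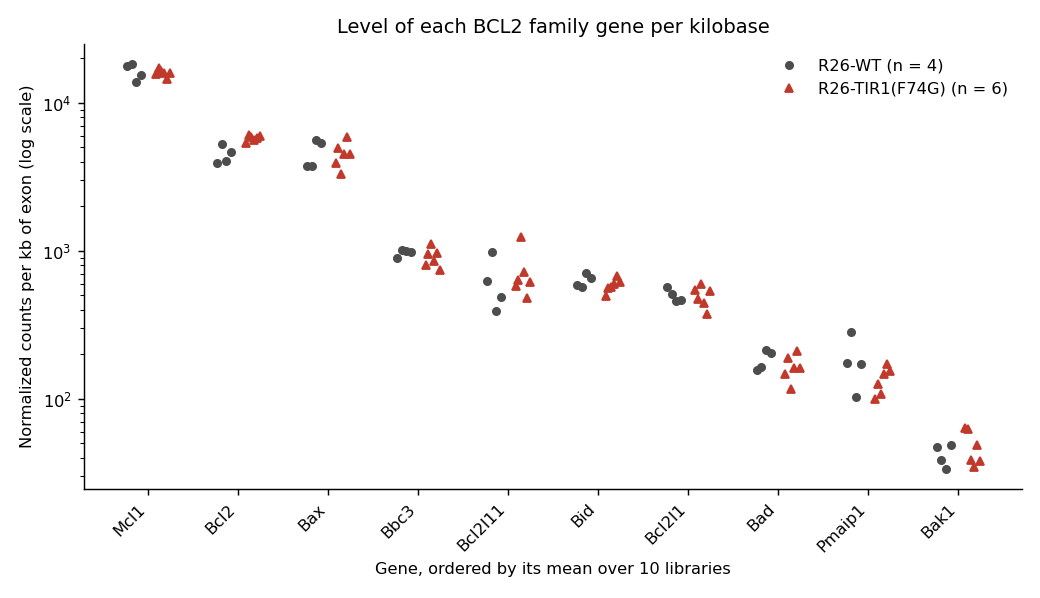
Normalized counts per kilobase of exon (vertical axis, log scale) of the 10 genes, ordered by the mean over all libraries, in R26-WT (grey circles, n = 4) and R26-TIR1(F74G) (red triangles, n = 6). Mcl1 lies near 16000 and Bak1 near 45.5, and neighbours such as Bcl2 and Bax or Bad and Pmaip1 overlap.

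The balance of survival and death genes within a library was described by log2 ratios of levels per kilobase, without a test. Bcl2 to Bcl2l11 was 2.92 ± 0.45 over R26-WT (n = 4, SD) and 3.09 ± 0.47 over R26-TIR1(F74G) (n = 6, SD). Of the 6 R26-TIR1(F74G) libraries 1 lay above all R26-WT libraries, and replicate 7 (2.23) lay below all of them (lowest 2.44). Mcl1 to Bcl2l11 was 4.79 ± 0.40 and 4.54 ± 0.43, and Bcl2l1 to Bcl2l11 was -0.22 ± 0.49 and -0.48 ± 0.36, and for each of these ratios R26-TIR1(F74G) replicate 7 lay below all R26-WT libraries (3.72 and -1.06) and the others lay within their range. All 3 ratios to Bcl2l11 differed by less than the spread between libraries. Bcl2 to Bax was -0.03 ± 0.42 and 0.38 ± 0.28, and 1 of 6 libraries lay above all R26-WT libraries. The higher Bcl2 in R26-TIR1(F74G) therefore did not separate the groups in either ratio that includes it. Both denominators, Bcl2l11 and Bax, varied with the length slope of the library described next (r 0.92 and -0.96). The part of that slope in these ratios was not tested.

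Several members varied with a property of the library. In each library the log2 normalized counts of genes with a mean of at least 50, centred per gene, were regressed on the log10 of exonic length. This length slope was 0.18, 0.37, -0.46 and -0.35 in R26-WT replicates 1 to 4 and ran from -0.29 to 0.56 in R26-TIR1(F74G), so it varied within both groups. Over the 10 libraries the Pearson correlation with the slope was 0.92 for Bcl2l11, -0.96 for Bax, -0.93 for Bad, 0.72 for Bcl2l1, 0.67 for Mcl1 and -0.64 for Bid. Spearman's rho was 0.83, -0.96, -0.85, 0.73, 0.77 and -0.69 in the same order. Without the 2 libraries farthest from the median slope r was 0.81, -0.94, -0.85, 0.65, 0.64 and -0.55, and after the group means were removed it was 0.90, -0.95, -0.93, 0.74, 0.69 and -0.62. These correlations are descriptions over 10 libraries, and the source of the slope was not tested. Bbc3, Pmaip1 and Bak1 had an r of 0.077, 0.16 and -0.16 with the slope (rho 0.091, 0.14 and 0.030), though their exonic lengths of 2124, 2732 and 2407 bases are also short. Bcl2l11 (8029 exonic bases) and Bax (1576 exonic bases) moved oppositely across libraries, with r -0.85 and rho -0.83 between them. Of the 45 pairs of members, Bax with Bad had the highest Pearson r (0.93, rho 0.85) and Bcl2l1 with Bax the lowest (-0.86, rho -0.79). Bcl2 has 9157 exonic bases, the most of the members, yet its r with the slope was 0.27 (rho 0.079) and -0.20 without the 2 libraries.

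**Figure D5:**
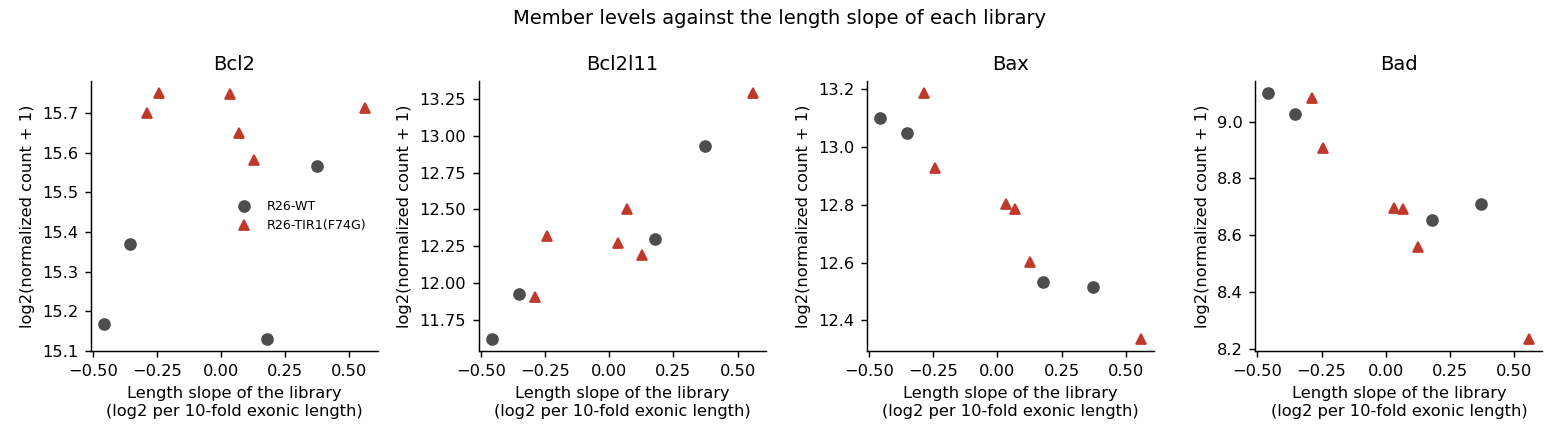
log2(normalized count + 1) of Bcl2, Bcl2l11, Bax and Bad (vertical axes) against the length slope of each library (horizontal axes, log2 per 10-fold exonic length) in R26-WT (grey circles) and R26-TIR1(F74G) (red triangles). Bcl2l11 rises with the slope (r 0.92), Bax and Bad fall with it (r -0.96 and -0.93), and of these 4 genes the groups separate for Bcl2.

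The way this library property was handled changed the call for Bcl2. With the length trend across genes removed in each library, Bcl2 averaged 42620 ± 7102 normalized counts over the R26-WT libraries (n = 4, SD) and 52520 ± 8166 over the R26-TIR1(F74G) libraries (n = 6, SD), 4 of 6 libraries were above all R26-WT libraries, and the log2 fold change was 0.30 (DESeq2 adjusted p 0.552). With the slope of the library as a covariate it was 0.36 (DESeq2 adjusted p 0.000413), and with 1 surrogate variable, which had an r of -0.999 with the slope, it was 0.36 (DESeq2 adjusted p 0.00054). Without both libraries of the highest slope, R26-WT replicate 2 and R26-TIR1(F74G) replicate 7, it was 0.46 (DESeq2 adjusted p 0.000963). No other member was called in these fits. The log2 fold change of Bcl2l11, 0.20 in the main fit, was 0.0535 with 1 surrogate variable and 0.0795 with the slope as a covariate. For Bcl2l11 it was 0.14 with the length trend removed and 0.27 without both libraries of the highest slope.

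Genes with a pattern most like a member over the 10 libraries were looked up among 12444 genes, as a description. For Bcl2 these were Pptc7 (r 0.97), Pola2 (r 0.93) and Paqr3 (r 0.93), of which Paqr3 was itself called (log2 fold change 0.82, DESeq2 adjusted p 0.00023). For Mcl1 they were Taf1c (r 0.95), Rin3 (r 0.94) and Fbxo46 (r 0.94). For Bcl2l11 they were Gm14276 (r 0.98), Adpgk (r 0.98) and Fam120c (r 0.98). The genes like Mcl1 and Bcl2l11 were not called.

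Other genes of the death pathway were examined from lists chosen by known function. Of 17 other genes of the BCL2 family 13 were tested and 0 were called, with a median log2 fold change of -0.03. An unadjusted p under 0.05 in the DESeq2 fit was found for 3 of the 13, beside 6.86% of all tested genes. The smallest p was that of Bcl2a1d, one of the near-identical A1 genes, which are anti-apoptotic, at 130 ± 33 normalized counts over the R26-WT libraries (n = 4, SD) and 230 ± 74 over the R26-TIR1(F74G) libraries (n = 6, SD), a log2 fold change of 0.82 (SE 0.25, with an adjusted p of 0.058 in DESeq2). Its groups did not overlap (94.5 to 168 and 180 to 376), but reads can be shared between the copies, so its count is uncertain. It was called with the length trend removed (adjusted p 0.00335 in DESeq2) and in 2 of the 10 leave-one-out fits, and not by edgeR (adjusted p 0.294). Another copy, Bcl2a1b, had a log2 fold change of 0.14 (SE 0.19). Of its exon bases 49.1% are also exons of Gm29094 on the same strand, so its count is uncertain as well.

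Downstream of the mitochondria, 0 of 20 genes on the list of the apoptosome, the caspases and their inhibitors (IAPs) were called. Of these 20, 0 had an unadjusted p under 0.05 in the DESeq2 fit, beside 6.86% of all tested genes. The smallest p was that of Birc3, an inhibitor of apoptosis, with a log2 fold change of -0.13 (SE 0.10). Birc5, another gene of the IAP family, was placed in the proliferation list instead and was called higher in R26-TIR1(F74G). Its log2 fold change was 1.56 (SE 0.28, adjusted p 8.07e-06 in DESeq2, edgeR adjusted p 0.043), and it was called in 10 of the 10 leave-one-out fits. Of 15 death receptor genes 0 were called, 2 at an unadjusted p under 0.05, and Traf1, a signalling adaptor of TNF receptors, had the smallest p (log2 fold change -0.23 with SE 0.08, adjusted p 0.233 in DESeq2). In the edgeR quasi-likelihood test 0 genes of both lists were called, and 0 were called with the length trend removed.

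Among p53 targets and regulators of the family, 3 genes were called. Of 16 tested p53 targets outside the family 1 was called, and 2 with the length trend removed, where Gadd45a was added (adjusted p 0.0589 in DESeq2 and 0.00157 with the trend removed). Sesn1, a stress-induced gene that restrains mTORC1, fell, from 9134 ± 1555 normalized counts over the R26-WT libraries (n = 4, SD) to 6557 ± 660 over the R26-TIR1(F74G) libraries (n = 6, SD), a log2 fold change of -0.48 (SE 0.14, with an adjusted p of 0.036 in DESeq2). The groups did not overlap (7623 to 10800 and 5523 to 7296), while the edgeR adjusted p was 0.137 and the call was made in 4 of the 10 fits that left out 1 library. Of 24 tested regulators of transcription and protein turnover of the family, 1 was called higher and 1 lower. E2f1, a cell cycle factor that can also induce BH3-only genes, rose, with normalized counts of 281 ± 70 in R26-WT and 679 ± 120 in R26-TIR1(F74G) (log2 fold change 1.27 with SE 0.19, adjusted p 3.32e-08 in DESeq2, edgeR adjusted p 0.0138). Pim1, a kinase that phosphorylates BAD, fell from 4346 ± 564 to 2930 ± 467 normalized counts (log2 fold change -0.57 with SE 0.15, adjusted p 0.0161 in DESeq2, edgeR adjusted p 0.126), and was called in 6 of the 10 fits that left out 1 library, where E2f1 was called in 10. Pim2, a related kinase on the same list, went the other way and was not called (log2 fold change 0.34 with SE 0.16, adjusted p 0.639 in DESeq2). Trp53 itself had a log2 fold change of -0.09 (SE 0.15).

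Proliferation genes were higher beside Bcl2, and their part in its difference was not tested. Of 18 such genes 15 were called, all higher in R26-TIR1(F74G), of which 7 were also called by edgeR. The summed level was 6700 to 9180 normalized counts in R26-WT and 12500 to 20400 in R26-TIR1(F74G). Bub1, Tyms and Plk1 were called in 2, 7 and 8 of the 10 fits that left out 1 library, and the other called genes in all 10. With the length trend removed Tyms was not called (DESeq2 adjusted p 0.0839) and Kif11 was added (DESeq2 adjusted p 0.00413). Of 15 activated Treg genes 1 was called higher, Tigit, an inhibitory receptor, and 1 lower, Tnfrsf9, a costimulatory receptor, while neither was called by edgeR (adjusted p 0.245 and 0.051) and Tigit was called in 7 of the 10 fits that left out 1 library. The summed level of this list overlapped between the groups (53800 to 62200 in R26-WT and 47500 to 63500 in R26-TIR1(F74G)). Of 10 resting T cell genes 1 was called, Tcf7, a factor of resting T cells, which was higher (log2 fold change 0.43 with SE 0.12, adjusted p 0.0257 in DESeq2, edgeR adjusted p 0.121) and was called in 3 of the 10 leave-one-out fits.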

How the data were processed

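Bulk RNA-seq of Treg cells was analysed in 4 R26-WT and 6 R26-TIR1(F74G) libraries, grouped by the labels. Library names carry a mouse number, and nothing else states how the samples were taken, so p-values measure the spread between these libraries. The deposited values are raw counts of read pairs per gene name, which the authors did not normalize. The file headers name featureCounts 2.1.1 with GENCODE M30 (GRCm39), primary pairs of mapping quality 30 or more, no strand option, and no pairs on several genes. The labels name Bowtie2 for alignment and the study's methods name STAR. All 37 mitochondrial gene rows were 0. Libraries were amplified by PCR without molecular identifiers, so depth (24158699 to 54795718 pairs) gives a lower limit of the error.

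Counts were tested with DESeq2 1.42.0 (R 4.3.3), a Wald test (two-sided) on genotype without covariates, mean count of at least 10, adjusted p under 0.05, on 16363 genes. DESeq2 gave no adjusted p for 6. Intervals are 95% and rest on the fitted SE. Alternatives were edgeR 4.0.16, limma 3.58.1 voom with quality weights, TMM scaling, no count filter, a mean of at least 50, a length trend removed per library (loess span 0.3), 1 surrogate variable (sva 3.50.0) and each library left out. After the data were seen, a fit without both libraries of the highest length slope and one with the slope as a covariate were added. Length slopes and pattern likeness used genes with a mean of at least 50. The tests were also run on simulated counts.

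Each of the 10 members is named. In other lists, every called gene is named or, if there is none, the gene with the smallest p. The 15 proliferation genes and the lists of other cell types are given as counts, apart from Eomes and the proliferation genes named below. For Bcl2, Mcl1 and Bcl2l11 the 3 genes most like them are named. Bcl2a1b, Gadd45a, Trp53, Pim2, Tnfrsf18, Izumo1r and the markers at 0 were chosen after their values were seen. The same holds for the proliferation genes Birc5, Bub1, Tyms, Plk1 and Kif11. Members and lists were chosen with earlier results of these data known. Protein sequences were not used, and the search for the BH3 core was made in coding bases of GENCODE vM39 on GRCm39, outside chromosome 18, a choice made after the data were seen.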

Additional observations from a re-analysis of the deposited data

Results flagged for a closer look

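Bcl2l11 in R26-TIR1(F74G) replicate 7 had 10010 normalized counts, far from the next library of its group with 5812. The gap was 0.68 of the range of the 6 libraries. This library also had the highest length slope of all 10, 0.56. Among the 22 groups of values examined in this way 1 was marked, where about 1.1 would be by chance, since the rule marks about 1 in 20 groups.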

How the results depend on the processing

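No paired analysis was possible because R26-WT libraries are numbered 1 to 4 and R26-TIR1(F74G) libraries 5 to 10. The number of members called, 1, fell to 0 with edgeR, limma voom, TMM scaling and the length trend removed, and was 0 to 1 when each library was left out. The number of all genes called, 284, was 61 with edgeR, 80 with limma voom, 743 with 1 surrogate variable, 767 with the length slope as a covariate, and 187 to 346 when each library was left out, lowest without R26-WT replicate 4. The fits on other count filters (0 and 50) and without both libraries of the highest slope kept 1 member. Of the 10 members, 6 kept their sign in all 19 alternatives. The other 4 did not. Bax was 0.010 with the length trend removed, 0.082 with 1 surrogate variable and 0.066 with the slope as a covariate, and -0.12 to 0.076 with a library left out. Mcl1 was 0.0097 without both libraries of the highest slope and -0.10 to 0.0255 with 1 left out. With 1 left out Bcl2l1 was -0.083 to 0.051 and Bcl2l11 -0.030 to 0.51. The cause was not tested. Bak1 had the fewest counts (47 to 147 per library).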
